A study of Homo sapiens with 8 samples.

Results

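Amino acid transporters of the plasma membrane were followed in SUDHL6, a long-established lymphoma cell line derived from human germinal-centre-type B cells. The set was 10 genes chosen by symbol, SLC7A5, SLC3A2, SLC7A1, SLC7A6, SLC1A4, SLC1A5, SLC38A1, SLC38A2, SLC6A9 and SLC43A1, and all 10 were found among the 17467 genes that the 3 deposited expression tables shared. Total RNA from 8 libraries was sequenced, 2 from each of 4 groups. Cells in RPMI1640 with fetal bovine serum received DMSO vehicle, or 2.5 µM MS8815, EPZ-6438 or MS8815N, for 18 h. According to the labels, MS8815 is a PROTAC (a molecule that brings its target to a ubiquitin ligase) against EZH2, the methyltransferase of the polycomb repressive complex. EPZ-6438, also known as tazemetostat, inhibits the enzymatic (SET) domain of EZH2, and MS8815N is the analog of MS8815 that does not act as a PROTAC. Duplicates were collected, but separate cultures are not mentioned. Each p-value therefore rests on spreads between the 2 libraries of a group, pooled over groups, that may be technical only.

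Cells take up most amino acids through a few families of carriers. The heavy chain CD98, encoded by SLC3A2, carries light chains such as LAT1 (SLC7A5) to the membrane, where the pair exchanges intracellular glutamine for leucine and other large neutral amino acids. Sodium-coupled carriers such as ASCT2 (SLC1A5), SNAT1 (SLC38A1) and SNAT2 (SLC38A2) bring in glutamine and small neutral amino acids, and several of these genes are textbook targets of ATF4, the transcription factor of the amino acid response, or of MYC. Proliferating lymphocytes and lymphomas are known for high levels of LAT1 and CD98.

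The libraries differed in depth and, for MS8815, in the markers of cell type. Estimated depth was 30.9 to 31.7 M reads for DMSO, 26.0 and 30.5 M reads for EPZ-6438, 30.2 and 34.1 M reads for MS8815N, but 13.0 and 14.6 M reads for MS8815. The median difference between replicates on the log2 scale, over the 8734 genes in the upper 50% by level, was 0.11 in the MS8815 group and 0.057 to 0.062 in the others. Of 23 B-cell markers, 21 were in the tables, and none of those was at 0 in any library. Their summed level was 10050 to 10300 normalised counts per M counts of the table in all libraries except those of MS8815. The MS8815 libraries held 5001 and 5169. With MS8815, 20 of the 21 were called lower and 1 higher, beside 22.4% of all genes called lower and 24.5% higher. A list of 38 genes of adherent epithelial and stromal cells, a cell type that the label does not name, moved the other way: its sum was 263.1 to 285.4 per M in DMSO, 333.7 to 344.8 with EPZ-6438, 347.3 to 368.4 with MS8815N, and 3485 and 3613 with MS8815. No member of that list in a table was at 0 in any library. With MS8815, 36 of its 38 genes were called higher (adjusted p under 0.05, limma) with a median log2 change of 4.03. T- and NK-cell markers (4 or 5 of 10 in a table) summed to between 18.3 and 29.85 per M in every library, and myeloid and plasma-cell markers (7 of 8) to between 153.1 and 320.0, lowest with MS8815. That sum follows the plasma-cell gene JCHAIN, which was called lower with MS8815, whereas 4 of the 7 were called higher and the list's median log2 change was 2.6. The part of these markers in the transporter values was not tested, and in bulk RNA fewer cells of a type and less RNA per cell cannot be told apart. The EZH2 transcript fell by 0.27 on the log2 scale with MS8815 (adjusted p = 0.0123, limma) and differed from DMSO by 0.02 with EPZ-6438 and −0.03 with MS8815N (adjusted p = 0.86 and 0.79), and it does not report on the protein that a PROTAC removes. The MYC transcript fell by 0.47 with MS8815 (adjusted p = 0.00135) and differed by −0.08 and −0.01 with EPZ-6438 and MS8815N (adjusted p = 0.269 and 0.879).

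In the DMSO libraries the transporter transcripts spanned a wide range. Normalised read count per kilobase of the longest coding transcript was highest for SLC7A5, at 4765.2 and 4706.0 in the 2 DMSO libraries. SLC1A5 came next with 4421.8 and 4450.5, and SLC3A2 followed with 3467.1 and 3586.6. The LAT1 light chain, its heavy chain and ASCT2 were thus the 3 most abundant of the set by this measure. SLC38A1 held 1581.7 and 1509.4 per kilobase, and SLC1A4, which encodes the neutral amino acid carrier ASCT1, held 1030.6 and 1006.9. SLC7A1, the carrier CAT1 for arginine and lysine, reached 982.9 and 932.1. SLC38A2 stood lower at 593.9 and 553.1, SLC43A1 (the sodium-independent carrier LAT3) at 270.2 and 261.9, and SLC7A6 (the light chain y+LAT2) at 151.1 and 102.4. SLC6A9, the glycine transporter GlyT1, was lowest by far at 11.7 and 20.0. No neighbouring pair in this order overlapped between the DMSO libraries. With the merged length of all exons in place of the longest transcript, SLC7A1 (mean 914.6) passed SLC1A4 (mean 669.6), SLC3A2 came to a mean of 1513.4, and the rest of the order held.

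**Figure D1:**
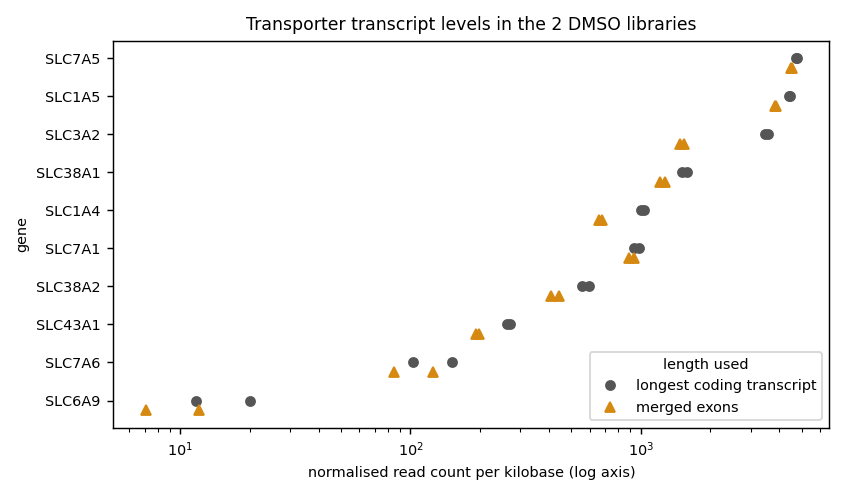
Normalised read count per kilobase (log axis) of each transporter in the 2 DMSO libraries, with the length of the longest coding transcript (circles) or of all merged exons (triangles). SLC7A5, SLC1A5 and SLC3A2 lie highest and SLC6A9 lowest with both lengths, and SLC1A4 and SLC7A1 change places.

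All positions are those of GENCODE 29 on GRCh38. SLC7A5 (ENSG00000103257.8) lies on the minus strand at chr16:87830023-87869488, and SLC3A2 (ENSG00000168003.16) on the plus strand at chr11:62856102-62888875. SLC1A5 (ENSG00000105281.12) occupies chr19:46774883-46788594 on the minus strand. Both SNAT genes lie on the minus strand of the same chromosome, SLC38A1 (ENSG00000111371.15) at chr12:46183063-46270017 and SLC38A2 (ENSG00000134294.13) at chr12:46358189-46372867. SLC1A4 (ENSG00000115902.10) is at chr2:64988477-65023865 on the plus strand, and SLC7A1 (ENSG00000139514.12) is at chr13:29509410-29595688 on the minus strand. SLC6A9 (ENSG00000196517.11) is at chr1:43991500-44031467 and SLC43A1 (ENSG00000149150.8) at chr11:57484534-57515786, both on the minus strand, and SLC7A6 (ENSG00000103064.14) is at chr16:68264516-68301823 on the plus strand. Counting by strand is not given in the sources used here, and some members overlap an expressed gene on the opposite strand, among them SLC7A6 with SLC7A6OS and SLC6A9 with CCDC24. Reads of such pairs may not be fully separated, and SLC7A5 has the copies SLC7A5P1 and SLC7A5P2, whose own normalised counts were 107.7 or below in every library, each on the scale of its own table.

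Because several members are known targets of ATF4 or MYC, the RefSeq promoter windows of the set were searched for the binding letters of each. The windows run from 250 bases before to 50 bases after an annotated transcript start on GRCh38.p14, and the 10 genes had 17 such windows. The first pattern was TGATGNAA on either strand, the letters of the C/EBP-ATF response element through which ATF4 acts, and the second was the E-box CACGTG bound by MYC and its partners, which reads the same on both strands. TGATGNAA occurred in 5 of the 17 windows, 1 window for each of 5 members, against 3.62% of all 35116 promoter windows. CACGTG occurred in 3 of the 17, against 7.26% of all windows. A match is a description of the letters and not evidence of binding. The 5 members' sites are shown on the gene's own strand with the matched letters in capitals, together with the site of ASNS, asparagine synthetase, a classic gene of the amino acid response. The last 3 lines show the E-box sites.
SLC1A5: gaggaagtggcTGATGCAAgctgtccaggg
SLC3A2: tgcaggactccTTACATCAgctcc
SLC1A4: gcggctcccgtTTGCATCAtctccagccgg
SLC38A1: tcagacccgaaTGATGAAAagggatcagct
SLC7A1: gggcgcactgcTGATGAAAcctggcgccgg
ASNS: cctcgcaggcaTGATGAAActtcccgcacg
SLC7A5: gccggacgacgCACGTGctccgagctgg
SLC1A5: gcgggagtggtCACGTGgacaggacggg
SLC43A1: agcgggcgagtCACGTGcgcgtgaaact

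The stretches shown for the TGATGNAA sites were chr19:46784893-46784922 for SLC1A5, chr11:62881725-62881748 for SLC3A2, chr2:64989381-64989410 for SLC1A4, chr12:46266502-46266531 for SLC38A1, chr13:29595663-29595692 for SLC7A1 and chr7:97872458-97872487 for ASNS. Counted from a transcript start as position 1, with −1 just before it, the match spanned positions −97 to −90 in SLC1A5 and −68 to −61 in ASNS. It spanned −7 to 1 in SLC1A4, −4 to 4 in SLC38A1, 8 to 15 in SLC7A1 and 38 to 45 in SLC3A2, where the letters stand on the other strand, as they do in SLC1A4. SLC38A1, SLC7A1 and ASNS share the 8 letters TGATGAAA, whereas SLC1A5 and SLC1A4 (read on its other strand) hold TGATGCAA. The E-boxes lay at chr16:87869621-87869648 in SLC7A5 (positions −130 to −125), chr19:46787327-46787354 in SLC1A5 (−50 to −45) and chr11:57515798-57515825 in SLC43A1 (−112 to −107). The E-box and the TGATGNAA site of SLC1A5 belong to windows of different transcript starts. The starts used for SLC1A5, SLC3A2, SLC1A4 and SLC38A1 lie inside the gene as GENCODE draws it, and that of SLC7A1 is the gene's outer end. The windows of SLC38A2, SLC7A6 and SLC6A9 held neither pattern.

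MS8815 was compared with DMSO for the response of these transcripts to the EZH2 degrader. SLC38A2 and SLC6A9 rose most, SLC3A2 rose by a smaller amount, SLC1A4, SLC38A1 and SLC7A1 fell, and the other 4 did not pass the test. The counts of 3 higher and 3 lower among 10 stand beside 24.5% of all genes called higher and 22.4% called lower in this comparison. The members' median log2 change was 0.03, and that of all 18744 genes was 0. Library values in the following sentences are normalised read counts on the common scale of the MS8815N table, and log2 changes are on the log2(count + 1) scale with their standard error (SE), from limma within the compound's own table.

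Among the glutamine carriers, SLC38A2, which cells induce when amino acids are scarce, held 2903.1 and 2703.7 counts in DMSO and 7296.7 and 7650.5 with MS8815. Both MS8815 libraries stood far above both DMSO libraries, a mean ratio of 2.67 in the MS8815 table. The log2 change was 1.41 ± 0.06 (SE, n = 2 per group, adjusted p = 3.12e-05, limma). Its paralog SLC38A1 went down, from 12758.1 and 12174.7 counts to 9259 and 9790.5. The log2 change of SLC38A1 was −0.39 ± 0.05 (adjusted p = 0.00104, limma). SLC1A5 held 12743.7 and 12826.3 counts in DMSO and 12518.2 and 13645.8 with MS8815, so its groups overlapped, and its log2 change of 0.03 had a 95% interval of −0.09 to 0.15 (adjusted p = 0.628). SLC1A4, the paralog of SLC1A5 that carries alanine, serine, cysteine and threonine, went from 4700.4 and 4592.4 counts to 2930.6 and 3228.5. SLC1A4 had the steepest fall of the set, with a log2 change of −0.59 ± 0.07 (adjusted p = 0.000753, limma).

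Of the LAT1 complex, the heavy chain rose with MS8815 and the light chain did not pass the main test. After quantile normalisation both chains were called higher. The heavy chain SLC3A2 went from 7703.8 and 7969.4 counts to 9631.8 and 9575.9, with no overlap and a log2 change of 0.29 ± 0.04 (adjusted p = 0.00195, limma). Its main light chain SLC7A5 held 21619.9 and 21351.1 counts in DMSO and 20477.2 and 21329.6 with MS8815. The second MS8815 library thus lay just below the lower DMSO library, and the log2 change was −0.04 with an interval of −0.12 to 0.04 (adjusted p = 0.37). SLC7A6, a light chain that exchanges cationic for neutral amino acids, varied widely between replicates, at 953.1 and 646 counts in DMSO and 1127 and 872.5 with MS8815. Its groups overlapped, and the log2 change of 0.34 had an interval from −0.2 to 0.87 (adjusted p = 0.265). SLC43A1, which carries large neutral amino acids without a heavy chain, held 701.9 and 680.4 counts in DMSO and 680.4 and 729.6 with MS8815 (log2 change 0.03, interval −0.23 to 0.29, adjusted p = 0.853).

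The 2 remaining members carry arginine and glycine. SLC7A1 went from 7221.1 and 6848.4 counts to 6126.1 and 5938.6 with MS8815, a log2 change of −0.22 ± 0.05 (adjusted p = 0.0106, limma). This call was lost without either DMSO library or without the second MS8815 library, with adjusted p between 0.0574 and 0.108. SLC6A9 had the largest relative change of the set, from 36.77 and 62.53 counts to 259.8 and 264.7. The 2 DMSO values of SLC6A9 lay far apart, but both MS8815 values were several times higher, and the log2 change was 2.41 ± 0.32 (adjusted p = 0.000939, limma). Leaving out 1 library gave SLC6A9 a log2 change of 2.04 to 2.79.

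**Figure D2:**
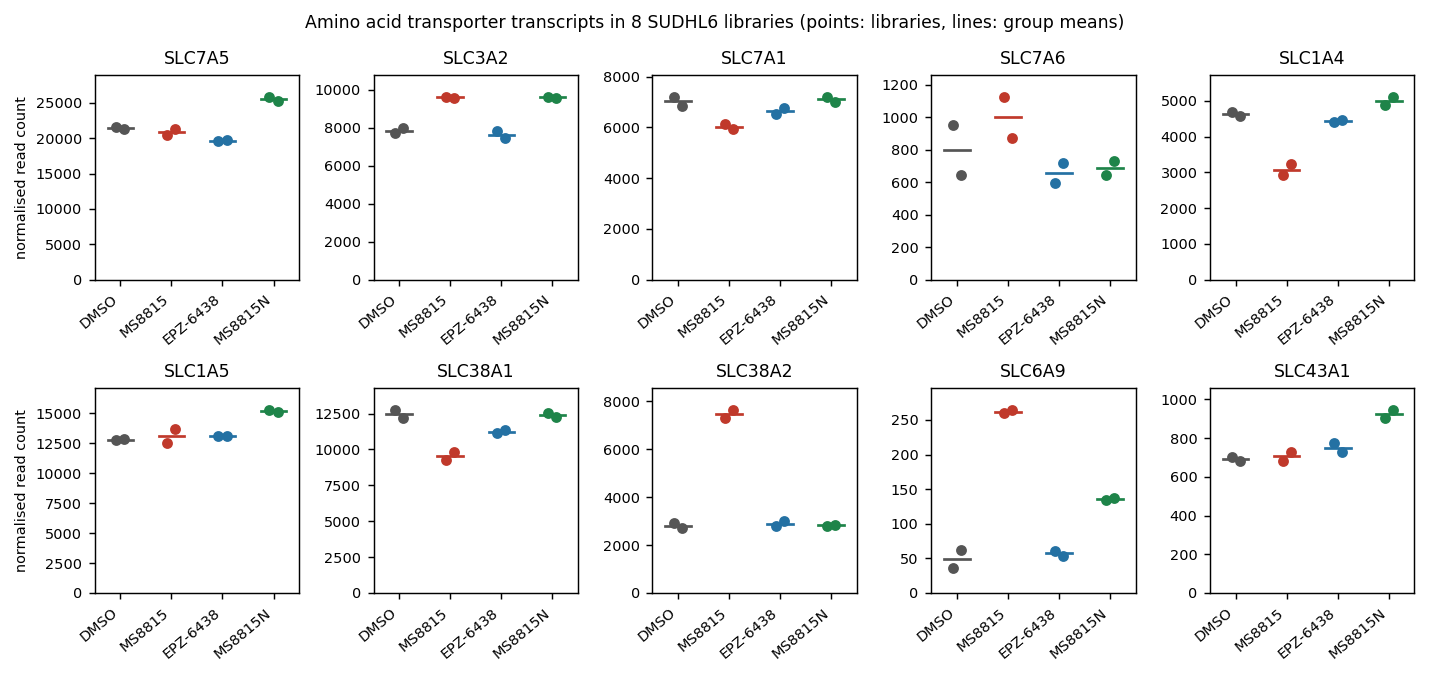
Normalised read counts (scale of the MS8815N table, linear axes from 0) of the 10 transporters in the 8 libraries; points are libraries and lines are group means. SLC38A2 stands at 7296.7 and 7650.5 with MS8815 and at 2703.7 to 2999.7 in all other libraries, and SLC7A5 is highest with MS8815N.

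The directions with MS8815 depended on what the libraries were scaled to. When they were scaled to the B-cell markers, whose share of the MS8815 libraries was lower, the median of all genes moved to 0.94. All 10 members were then called higher, beside 13550 of 18744 genes called higher and 163 lower. The list counts given below for this comparison and scale stand beside the same share. On that scale the log2 changes were 0.37 for SLC1A4, 0.58 for SLC38A1, 0.75 for SLC7A1, 0.93 for SLC7A5, 1.26 for SLC3A2, 2.38 for SLC38A2 and 3.36 for SLC6A9. Scaling to the B-cell markers adds about the same amount to every gene. The members' order on it is therefore that of the main fit and no separate check. Quantile normalisation moved the median of all genes to −0.2 and gave 5 members higher and 1 lower. Of all 18744 genes it called 3704 higher and 5257 lower. On that scale SLC7A5 (0.24, adjusted p = 0.00381, limma) and SLC1A5 (0.34, adjusted p = 0.00418) were called higher. SLC38A1 at −0.05 (adjusted p = 0.367) and SLC7A1 at 0.07 (adjusted p = 0.237) were not called. SLC38A2, SLC6A9 and SLC3A2 were also higher after quantile normalisation, at 1.66, 1.31 and 0.61.

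EPZ-6438 was compared with DMSO for the response to blocking the enzymatic domain. None of the 10 transporters passed the test, and 2 had an unadjusted p under 0.05. In this comparison 0.0164% of all genes were called higher and 0.0164% lower by limma on the deposited values, 3 of 18320 each way, and 3076 genes had an unadjusted p under 0.05. Limma on log2 counts also called no member. The members' median log2 change was −0.05, beside 0.01 for all genes.

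The 2 members with the smallest p were SLC7A5 and SLC38A1, and both had lower values with EPZ-6438 in each library. SLC7A5 held 19538.6 and 19759.3 counts with EPZ-6438, below both DMSO values, a log2 difference of −0.13 ± 0.02 (SE, n = 2 per group, adjusted p = 0.0898, limma). SLC7A5 passed at an adjusted p of 0.0433 when the lower 50% of genes by level was removed first, and at 0.0434 without a trend in the variance. SLC38A1 held 11155.5 and 11324.7 counts, a log2 difference of −0.15 ± 0.03 (adjusted p = 0.114). SLC7A1 (6548.1 and 6758.7) and SLC1A4 (4415.5 and 4455) were also below both DMSO libraries, at −0.08 and −0.07 with adjusted p of 0.358 and 0.405.

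The other 6 members did not differ detectably from DMSO. SLC3A2 held 7817.3 and 7445.7 counts and SLC38A2 2788.2 and 2999.7, and both overlapped DMSO with log2 differences of −0.04 and 0.05. The 95% interval for SLC38A2 was −0.09 to 0.19, which does not reach the change seen with MS8815. SLC1A5 held 13062.6 and 13074.2 counts (0.03, interval −0.03 to 0.09), and SLC43A1 held 776 and 726 (0.12, interval −0.08 to 0.31). SLC6A9 at 60.38 and 54 counts stayed inside the spread of its DMSO libraries, and SLC7A6 at 595.5 and 717.6 overlapped its own, with log2 differences of 0.25 and −0.26 and wide intervals of −0.52 to 1.01 and −0.7 to 0.17. Adjusted p for these 6 lay between 0.522 and 0.778.

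MS8815N was compared with DMSO for the response to the analog without PROTAC action. Both chains of the LAT1 complex, SLC7A5 and SLC3A2, and the glutamine carrier SLC1A5 rose by about the same small amount, and no member fell. These 3 of 10 stand beside 0.288% of all genes called higher and 0.245% called lower in this comparison (53 and 45 of 18398). The members' median log2 change was 0.18, beside 0 for all genes, and 8 of 10 were above 0. All 3 calls were lost when any 1 of the 4 libraries was left out.

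SLC7A5 reached 25896.5 and 25239.3 counts with MS8815N, above both DMSO libraries and above every library of the other compounds. Its log2 change was 0.25 ± 0.02 (SE, n = 2 per group, adjusted p = 0.0145, limma). Its partner SLC3A2 reached 9595.6 and 9568.9 counts, a log2 change of 0.29 ± 0.03 (adjusted p = 0.019). SLC1A5 reached 15276.4 and 15106.1 counts, a log2 change of 0.25 ± 0.02 (adjusted p = 0.0149). For each of these genes the 2 groups did not overlap. Without 1 library the log2 changes were 0.23 to 0.27 for SLC7A5, 0.27 to 0.31 for SLC3A2 and 0.24 to 0.26 for SLC1A5, with adjusted p from 0.0819 to 0.448. SLC1A5 also missed the threshold in the fit of all 8 libraries (adjusted p = 0.0512). In the searched windows, SLC7A5 and SLC1A5 hold the E-boxes shown above, and SLC3A2 and SLC1A5 the TGATGNAA letters. Sequence outside those windows was not searched.

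SLC6A9 and SLC43A1 had larger values with MS8815N but did not pass. SLC6A9 held 134.5 and 136.7 counts against 36.77 and 62.53 in DMSO, a log2 difference of 1.48 ± 0.28 (adjusted p = 0.0699, limma). The value of SLC6A9 was 1.1 without the first DMSO library and 1.85 without the second. With the replicate number as a block it passed (adjusted p = 0.0411), although replicate numbers did not pair the libraries. SLC43A1 held 902.8 and 946 counts against 701.9 and 680.4, a log2 difference of 0.42 ± 0.07 (adjusted p = 0.0739), and it passed when the lower 50% of genes was removed first (adjusted p = 0.0403).

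The other 5 members did not pass with MS8815N either. SLC1A4, with TGATGNAA at its start, held 4883.4 and 5123.9 counts, above both DMSO libraries, at 0.11 with an interval of 0.01 to 0.2 (adjusted p = 0.268). SLC38A1 held 12551.9 and 12231.2 counts and SLC7A1 7220.1 and 7001.4, and both overlapped DMSO, at −0.01 and 0.02. SLC38A2, the member that rose by 1.41 with MS8815, held 2818.2 and 2851.1 counts, both between the DMSO libraries, at 0.02 with an interval of −0.1 to 0.14. SLC7A6 held 645.3 and 731.4 counts at −0.19, with an interval of −0.6 to 0.22.

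**Figure D3:**
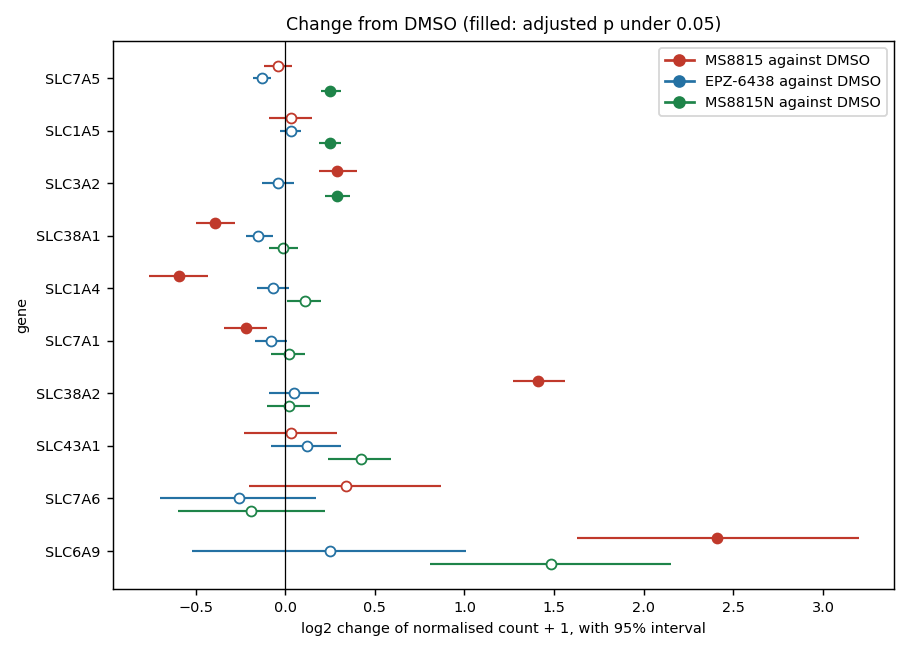
Log2 change of each transporter against DMSO with its 95% interval, not adjusted for multiple tests, for the 3 compounds; filled points had an adjusted p under 0.05. Only SLC3A2 is filled for both MS8815 (0.29) and MS8815N (0.29), and no point is filled for EPZ-6438. The 3 comparisons share the same 2 DMSO libraries.

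The compounds were then compared with each other at the same dose and time, in 3 pairs, by limma on the 8 libraries placed on a common scale. MS8815 and MS8815N differ, per the labels, in whether the molecule acts as a PROTAC. Between them SLC38A2 and SLC6A9 were higher with MS8815, SLC7A5, SLC7A1, SLC1A4, SLC1A5, SLC38A1 and SLC43A1 were lower, and SLC3A2 and SLC7A6 did not pass. In this pair 24.2% of all genes were called higher and 26.3% lower. The log2 difference, MS8815 minus MS8815N, was 1.40 for SLC38A2 (95% interval 1.27 to 1.53, adjusted p = 5.18e-07) and 0.95 for SLC6A9 (0.33 to 1.56, adjusted p = 0.0181). The call of SLC6A9 was lost without either MS8815N library, at adjusted p of 0.0813 and 0.0764, and after quantile normalisation (0.09, adjusted p = 0.794). SLC1A4 had the widest gap in the other direction, at −0.70 (−0.83 to −0.58, adjusted p = 1.6e-05).

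Of the LAT1 chains, only the light chain was called between MS8815 and MS8815N. SLC7A5 was lower with MS8815 by a log2 difference of −0.29 (−0.35 to −0.23, adjusted p = 4.25e-05), whereas SLC3A2 did not differ detectably, at 0 with an interval of −0.08 to 0.08 (adjusted p = 0.949). SLC1A5 differed by −0.22, SLC7A1 by −0.24, SLC38A1 by −0.38 and SLC43A1 by −0.39, with adjusted p from 6.55e-05 to 0.00488. SLC7A6 differed by 0.53 (0.07 to 0.99, adjusted p = 0.0572). After quantile normalisation 4 of the 10 passed, 2 higher and 2 lower, beside 3523 higher and 5979 lower of all 17467 genes. On that scale SLC3A2 was called higher with MS8815, at 0.29 (adjusted p = 0.000361), while SLC7A5 at −0.06 (adjusted p = 0.134) was not called, nor were SLC7A1, SLC1A5, SLC38A1 and SLC6A9. Scaled to the B-cell markers, all 10 were higher with MS8815, by 0.19 for SLC1A4 and 0.6 for SLC7A5. The median of all genes was then 0.83, and 12826 of 17467 genes were called higher.

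Against EPZ-6438, MS8815 gave 5 members higher and 3 lower, beside 24.2% of all genes higher and 26.3% lower. The members higher with MS8815 were SLC6A9 by 2.18 (interval 1.56 to 2.8, adjusted p = 0.000232), SLC38A2 by 1.37 (1.24 to 1.5, adjusted p = 5.49e-07), SLC3A2 by 0.33 (0.25 to 0.41, adjusted p = 9.03e-05), SLC7A6 by 0.6 (adjusted p = 0.0357) and SLC7A5 by 0.09 (adjusted p = 0.0226). SLC1A4 was lower by a log2 difference of −0.53 (adjusted p = 7.87e-05), SLC38A1 by −0.24 (adjusted p = 0.00089) and SLC7A1 by −0.14 (adjusted p = 0.0189). The calls of SLC7A5, SLC7A6 and SLC7A1 were lost without a trend in the variance. They were also lost without the second EPZ-6438 library, those of SLC7A5 and SLC7A6 without the first as well, those of SLC7A5 and SLC7A1 without the second MS8815 library, and that of SLC7A6 without the first, with adjusted p from 0.0549 to 0.188. SLC1A5 did not differ detectably, at 0 with an interval of −0.09 to 0.09, and neither did SLC43A1 at −0.09 (−0.28 to 0.1). After quantile normalisation SLC1A5 was called higher with MS8815, at 0.27 (adjusted p = 0.00049), and SLC43A1 lower, at −0.3 (adjusted p = 0.0208), while SLC38A1 (0.04, adjusted p = 0.422), SLC7A1 (0.1, adjusted p = 0.0721) and SLC7A6 (0.51, adjusted p = 0.0629) were not called. Scaled to the B-cell markers, all 10 were higher with MS8815. The median of all genes was then 0.84, and 12769 of 17467 genes were called higher.

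MS8815N and EPZ-6438 differed in both chains of the LAT1 complex. SLC7A5 was higher with MS8815N by 0.38 (0.32 to 0.44, adjusted p = 0.00161) and SLC3A2 by 0.33 (0.25 to 0.41, adjusted p = 0.0136), against 0.166% of all genes called higher and 0.00573% called lower (29 and 1 of 17467). Without any 1 of the 4 libraries SLC7A5 alone passed, and without a trend in the variance neither did. SLC1A5 was at 0.22 (0.13 to 0.31, adjusted p = 0.15) and SLC6A9 at 1.23 (0.61 to 1.85, adjusted p = 0.266). SLC38A2 did not differ detectably, at −0.03 with an interval of −0.16 to 0.10. When p-values were adjusted over the 3 pairs together, 7 members passed, all higher with MS8815N, beside 260 of 17467 genes called higher and 184 lower. SLC1A5, SLC6A9, SLC1A4, SLC38A1 and SLC43A1 were the added ones. The unadjusted p-values were the same and the threshold was shared with the pairs of MS8815, so the added calls are no separate check.

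**Figure D4:**
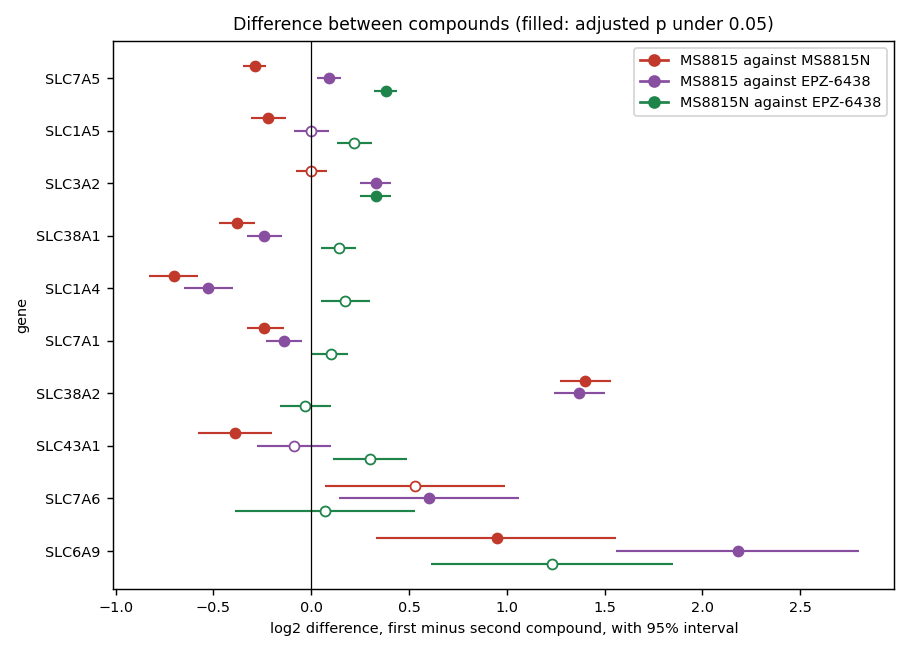
Log2 difference between compounds (first minus second) for each transporter with its unadjusted 95% interval, from the joined 8 libraries; filled points had an adjusted p under 0.05. SLC38A2 lies at 1.40 and 1.37 in the pairs with MS8815 and at −0.03 between MS8815N and EPZ-6438, while SLC3A2 lies at 0 between MS8815 and MS8815N.

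The other plasma-membrane amino acid transporters were read from a list of 20, of which 14 were in each table. With MS8815, 7 of the 14 were higher and 3 lower (median log2 change 0.81, beside 0 for all genes), next to 24.5% of all genes called higher and 22.4% lower, and scaling to the B-cell markers gave 9 higher and none lower. Fewer of the list were called without either DMSO library, as of all genes, and its median was 0.87 without the first and 0.95 without the second. After quantile normalisation 6 were higher and 4 lower with a median of 0.19, beside 3704 higher and 5257 lower of all 18744 genes. Among genes in the upper 50% by level, 5 were tested, 1 higher and 3 lower, with a median of −0.67. All 9372 genes of that upper part had a median of −0.2, with 1660 called higher and 4041 lower. SLC7A11, the cystine-glutamate exchanger that also pairs with SLC3A2, rose by 1.33 ± 0.08 (adjusted p = 0.000117, limma) and SLC7A2, a second cationic carrier, by 4.13 ± 0.28 from 10.54 and 10.37 counts in DMSO to 210.4 and 189.4 on the scale of the MS8815 table. SLC1A1, a glutamate carrier, fell by 0.94 (adjusted p = 0.000157), and SLC43A2, the paralog of SLC43A1, by 0.50 (adjusted p = 0.00144). With EPZ-6438 and with MS8815N none of the 14 passed limma, and 2 and 6 had an unadjusted p under 0.05. The medians were 0.06 and 0.20. SLC43A2 had the smallest p in both, with log2 differences of −0.17 for EPZ-6438 (adjusted p = 0.0983) and −0.19 for MS8815N (adjusted p = 0.067). The next were SLC7A3 with EPZ-6438, at 0.73 (adjusted p = 0.246), and SLC7A11 with MS8815N, at 0.27 (adjusted p = 0.116).

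Genes of the ATF4 program, which serve amino acid synthesis, tRNA charging and stress signalling, were read from a list of 30. They rose in part with MS8815N. The list was chosen with earlier results of these data known, so its counts are a description. Of 29 tested, 12 rose and none fell (median 0.36, beside 0 for all genes), beside 0.288% of all genes called higher. ATF5, a stress-induced transcription factor, went from 7320.7 and 7345.4 counts to 14323 and 14190.9, a log2 change of 0.96 ± 0.03 (adjusted p = 0.000119, limma). PSAT1, of serine synthesis, rose by 0.63 (adjusted p = 0.0029), WARS, the tryptophanyl-tRNA synthetase, by 0.53 (adjusted p = 0.00408), and PCK2, the mitochondrial PEP carboxykinase, by 1.05 (adjusted p = 0.00412). ASNS, whose site is shown above, rose by 0.69 (adjusted p = 0.00443). Left out 1 library at a time, the list kept a median of 0.35 to 0.38, but most of its calls were lost, as were most calls of all genes.

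With MS8815 the same list had 14 genes higher and 6 lower of 30 (median 0.25), next to 24.5% of all genes called higher and 22.4% lower. Fewer of the list were called without either DMSO library, as of all genes, and its median was 0.25 without the first and 0.24 without the second. Among genes in the upper 50% by level the median was −0.02, with 9 higher and 6 lower of 23. All 9372 genes of that upper part had a median of −0.2, with 1660 called higher and 4041 lower. Scaled to the B-cell markers 29 were higher. After quantile normalisation 18 were higher and 1 lower, beside 3704 higher and 5257 lower of all 18744 genes. The 4 with the smallest p were PPP1R15A, a phosphatase subunit of the stress response (1.99), ATF3, a stress-induced transcription factor (5.53), DDIT4, an mTORC1 inhibitor (1.70), and CEBPB, a partner of ATF4 (1.37), all with adjusted p of 0.00011 or below (limma). With EPZ-6438 none of 29 passed limma and 6 had an unadjusted p under 0.05, with a median of −0.03. XPOT, the tRNA exporter, was at −0.26 (adjusted p = 0.0558) and EIF4EBP1, a translation repressor, at 0.2 (adjusted p = 0.129). Between MS8815N and EPZ-6438, 10 of 29 were higher with MS8815N and none lower, next to 0.166% of all genes called higher and 0.00573% lower. Fewer passed when 1 library was left out or the trend was dropped, as of all genes.

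Enzymes that use or make glutamine were read from a list of 17, with 16 tested. With MS8815, 10 fell and 3 rose (median −0.50), next to 22.4% of all genes called lower and 24.5% higher, whereas scaling to the B-cell markers gave 13 higher and none lower, with a median of 0.47 beside 0.94 for all genes. GOT2, the mitochondrial aspartate aminotransferase, fell by 0.99 (adjusted p = 3.12e-05, limma), and GMPS, of guanine nucleotide synthesis, by 0.82 (adjusted p = 0.000252). GLUL, glutamine synthetase, rose by 3.63 ± 0.22 (adjusted p = 5.04e-05). With MS8815N only ASNS passed, and with EPZ-6438 none did by limma, while 7 of 16 had an unadjusted p under 0.05. The lowest were GOT2 at −0.18 (adjusted p = 0.0762) and GLUD1, glutamate dehydrogenase, at −0.15 (adjusted p = 0.0898).

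**Figure D5:**
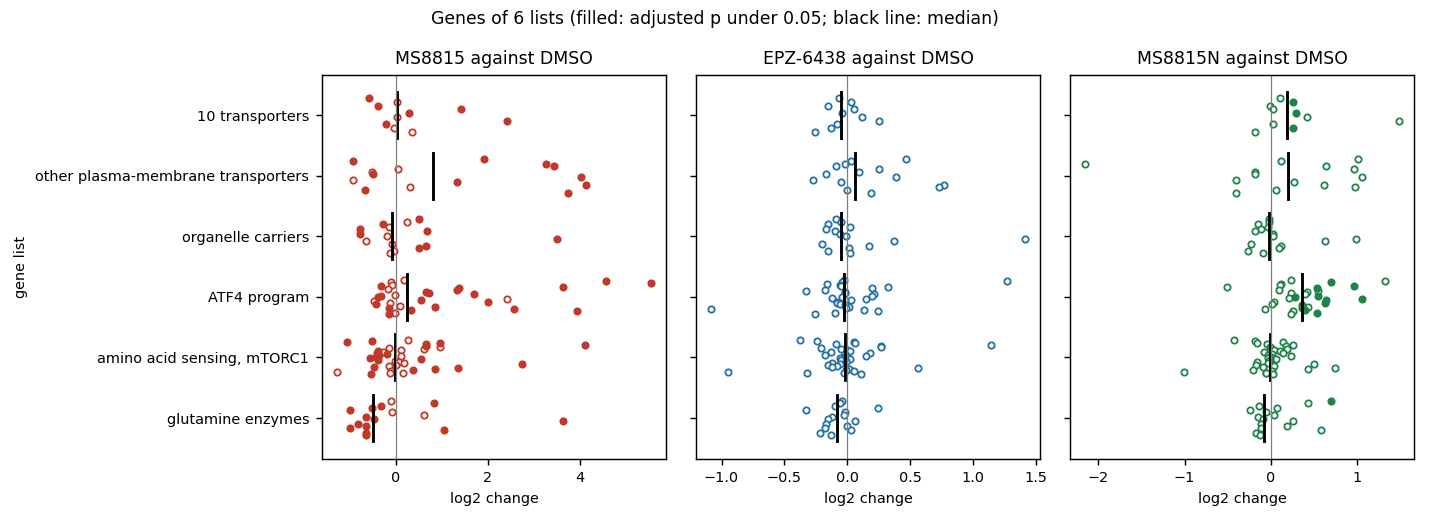
Log2 change against DMSO of each gene of 6 lists for the 3 compounds, each panel with its own linear axis; filled points had an adjusted p under 0.05 and the black line is the list median. With MS8815N the ATF4 program has 12 filled points, all to the right of 0, and its median is 0.36.

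The genes whose pattern over the 8 libraries was most like that of a member were taken from 8733 genes in the upper 50% by level. The libraries form 4 groups of 2, so a high correlation can rest on a single group, and it is given as a description. For SLC7A5 the closest were WARS (Pearson r = 0.978), XPOT (0.969) and RBM4B (0.949). WARS and XPOT had log2 changes of 0.53 and 0.23 with MS8815N and −0.02 and −0.15 with MS8815. For SLC3A2 they were HSD17B4 (0.975), TIMM22 (0.954) and MYDGF (0.948), which had log2 changes of 0.46, 0.08 and 0.17 with MS8815 and 0.35, 0.06 and 0.14 with MS8815N. For SLC38A2 they were RASA3 (0.999), TCF3 (0.999) and ZBTB18 (0.998), with log2 changes of 1.26, 0.72 and 0.88 with MS8815 and between 0 and 0.02 with the other compounds.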

How the data were processed

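RNA sequencing was done on 8 SUDHL6 libraries. Per the submitters' processing notes, STAR 2.4.2 and Salmon were used with the GRCh38 build, and per the labels either of 2 kits made each library, with no record of which. The authors deposited 3 tables, one per compound with the same 2 DMSO libraries, of log2-type values, the variance-stabilising transform of DESeq2 by the tables' names. It was inverted exactly to normalised read counts. The DMSO libraries of different tables then differed by a constant for each gene and a constant for each library. The largest deviation from this was 7.04e-11 on the log2 scale over 17219 genes. The constants differed between genes. The first DMSO library held 13816.5 counts of SLC7A5 on the scale of the MS8815 table and 21619.9 on that of the MS8815N table. For SLC7A6 these values were 527.2 and 953.1. With the constants of the genes, all libraries were placed on the scale of the MS8815N table. For 10 genes without a constant the median was used. Counts of genes that are not transporters of the set are on the scale of the compound's own table. Read depth was estimated from low values as whole multiples of 1 read, and it counts reads of the deposited genes only. It assumes the same value of 1 read for all genes of a library, which the constants of the genes do not ensure, so it is approximate. The highest share of low values on whole multiples over all spacings tried was 38.3% to 61.7%, within a tolerance of 0.02. The spacing used had to meet a further condition, so its own share may be lower. No sample was dropped and no further filter was applied.

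Each compound was tested against DMSO within its table by limma 3.58.1 (R 4.3.3) with a variance trend on the deposited log2-type values, two-sided, with Benjamini-Hochberg adjustment over all genes, and called at 0.05. Log2 changes, SE and 95% intervals came from limma on log2(count + 1), with a pseudocount of 1. Pairs of compounds were fitted on log2(count + 1) of all 8 libraries, so their p-values rest on the spreads of all 4 groups. The fits were tested on simulated data. The alternatives were other scalings, filters, pseudocounts, variance models, a replicate block and leaving out each library. Replicate numbers did not pair the libraries (correlations of −0.039 to 0.021).

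All 10 members are named in every comparison. From each other list the called genes were named, at most 4 with the smallest p, or the 2 with the smallest p where none was called, and ASNS was added to the ATF4 genes of MS8815N after its values were seen because its promoter is shown. Some genes that the rule takes are left out and not reported here. The 10 members, the gene lists and the tests were chosen with earlier results of these data known. Promoter sequences are from RefSeq on GRCh38.p14, with a window for all 10 members and for 25 of the 30 ATF4 genes.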

Additional observations from a re-analysis of the deposited data

How the results depend on the processing

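Of the 129 log2 values of single transporters under alternatives in each comparison, 112 kept their sign and their side of the threshold for MS8815 against DMSO, 122 for EPZ-6438, 106 for MS8815N, 109 for MS8815 against MS8815N, 104 for MS8815 against EPZ-6438 and 114 for MS8815N against EPZ-6438. With 2 libraries per group, leaving one out assumes that the lone library varies like the other group. The MS8815 libraries were the shallowest, with 13.0 and 14.6 M reads. Scaling to the B-cell markers moved the called transporters with MS8815 from 6 to 10 and all called genes to 13713 (13550 higher and 163 lower, against 4589 and 4193), and its values against DMSO were 0.93 for SLC7A5, 0.75 for SLC7A1, 0.37 for SLC1A4 and 0.58 for SLC38A1. Against MS8815N it gave 0.6 for SLC7A5, 0.66 for SLC7A1, 0.19 for SLC1A4, 0.68 for SLC1A5, 0.51 for SLC38A1 and 0.5 for SLC43A1 (all genes 12826 higher and 268 lower, against 4231 and 4601), and against EPZ-6438 0.77 for SLC7A1, 0.39 for SLC1A4, 0.67 for SLC38A1 and 0.82 for SLC43A1 (12769 and 286, against 4229 and 4602). It gave 14 called genes for EPZ-6438 (6 higher and 8 lower), and 85 higher and 23 lower for MS8815N (53 and 45 before), with SLC38A1 at 0.04. Quantile normalisation gave 3704 genes higher and 5257 lower for MS8815, 11 called genes for EPZ-6438 (7 higher and 4 lower), 78 higher and 38 lower for MS8815N, 3523 and 5979 for MS8815 against MS8815N, 3590 and 6034 for MS8815 against EPZ-6438, and 17 called genes between MS8815N and EPZ-6438. It put SLC7A5 at 0.24, SLC7A1 at 0.07 and SLC43A1 at −0.2 with MS8815, SLC3A2 at 0.03 with EPZ-6438 and SLC38A1 at 0.04 with MS8815N. Between MS8815 and MS8815N it left 4 transporters called, with SLC7A1 at 0.01 and SLC1A5 at 0.05, and between MS8815 and EPZ-6438 it put SLC7A1 at 0.1 and SLC38A1 at 0.04.

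Removing the lower 50% of genes by level, which also tests fewer genes, gave 5701 called genes for MS8815 (1660 higher and 4041 lower), 298 and 1 transporter (SLC7A5) for EPZ-6438, 385 for MS8815N, 5635 for MS8815 against MS8815N and 5612 for MS8815 against EPZ-6438. Without a variance trend EPZ-6438 had 169 called genes and 1 transporter, MS8815N 252 genes, MS8815 against EPZ-6438 5 transporters, and MS8815N against EPZ-6438 4 genes and 0 transporters. EPZ-6438 had 6 called genes in all, 25 by limma on log2 counts, 27 with a pseudocount of 10 and 0 in the joined fit of 8 libraries, which gave 65 for MS8815N. Adjusting over the 3 pairs together gave 7 transporters and 444 genes between MS8815N and EPZ-6438. There only the pool of the adjustment changed, and 1070 genes had an unadjusted p under 0.05 as in the main fit. For the other changes, beyond the number of genes tested, the cause was not tested. With the replicate block, EPZ-6438 had 10 called genes and MS8815N 353 in place of 98, with 4 transporters in place of 3 (SLC6A9 added), and it changed no other call of a transporter.

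Leaving out 1 library at a time left 0 transporters and 0 to 6 genes called for MS8815N, and 0 genes for EPZ-6438. It left 3583 to 8932 genes for MS8815, the low values (3657 and 3583) without the first and second DMSO library. It left 5 to 7 transporters between MS8815 and EPZ-6438, and 1 transporter and 8 to 11 genes between MS8815N and EPZ-6438. Signs of values near 0 turned in this way. The ranges were −0.03 to 0.09 for SLC1A5 and −0.02 to 0.08 for SLC43A1 with MS8815, −0.54 to 0.02 for SLC7A6, −0.01 to 0.1 for SLC38A2 and −0.13 to 0.62 for SLC6A9 with EPZ-6438, and −0.02 to 0.05 for SLC7A1, −0.47 to 0.09 for SLC7A6, −0.04 to 0.03 for SLC38A1 and −0.03 to 0.07 for SLC38A2 with MS8815N. They were 0 to 0.01 for SLC3A2 between MS8815 and MS8815N, −0.06 to 0.06 for SLC1A5 between MS8815 and EPZ-6438, and −0.06 to 0.21 for SLC7A6 and −0.08 to 0.02 for SLC38A2 between MS8815N and EPZ-6438.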

Other observations

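Carriers of the mitochondrion and lysosome were read from a list of 16 genes, of which 15 were tested. With MS8815, 5 were higher and 3 lower (median log2 change −0.09, beside 0 for all genes), next to 24.5% of all genes called higher and 22.4% lower, and scaled to the B-cell markers 12 were higher and none lower. Fewer of the list were called without either DMSO library, as of all genes, and its median was −0.09 without the first and 0 without the second. Fewer of the list, though not of all genes, were also called without the second MS8815 library, where its median was −0.08. SLC25A29, a mitochondrial carrier of basic amino acids, rose by 3.49 ± 0.26 (SE) from 16.64 and 16.76 counts in DMSO to 216.2 and 181.5 (adjusted p = 0.000259, limma). SLC25A13, an aspartate-glutamate carrier, rose by 0.67 (adjusted p = 0.00269), while its paralog SLC25A12 fell by 0.77 (adjusted p = 0.00653) and the ornithine carrier SLC25A15 by 0.77 (adjusted p = 0.0022). With EPZ-6438 and with MS8815N no member of the list passed limma, and 2 of 15 had an unadjusted p under 0.05 in each. The log2 difference of SLC25A29 was 1.41 for EPZ-6438 (adjusted p = 0.091) and 0.98 for MS8815N (adjusted p = 0.153), and SFXN1, a mitochondrial serine carrier, was at −0.15 with both (adjusted p = 0.181 and 0.125).

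Genes that sense amino acids and pass the signal to mTORC1 were read from a list of 37. With MS8815, 9 were higher and 12 lower (median −0.03), next to 24.5% and 22.4% of all genes, and scaled to the B-cell markers 35 were higher and none lower. Fewer of the list were called without either DMSO library, as of all genes, and its median was −0.05 without the first and −0.06 without the second. Quantile normalisation gave 7 higher and 8 lower, beside 3704 higher and 5257 lower of all 18744 genes. RHEB, the activator of mTORC1, rose by 0.54 (adjusted p = 0.000399, limma), FLCN, the folliculin subunit, by 0.95 (adjusted p = 0.000595) and SESN2, a leucine sensor, by 0.85 (adjusted p = 0.00122), while NPRL3, of the inhibitory GATOR complex, fell by 0.57 (adjusted p = 0.00176). None passed limma with EPZ-6438 or MS8815N, where 10 and 7 of 37 had an unadjusted p under 0.05. The smallest p belonged to TSC2 with EPZ-6438, at −0.32 (adjusted p = 0.102), followed by LAMTOR4 at 0.18 (adjusted p = 0.2). With MS8815N it belonged to SESN2, at 0.43 (adjusted p = 0.0799), followed by SESN1 at 0.74 (adjusted p = 0.143).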
